A study of Mus musculus with 6 samples.

Results

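The genes described here are 37 mouse genes of glycolysis and of the cellular response to low oxygen, listed by symbol, by a rule that holds no measured value, although earlier results of these data were known when the list was made, out of 46078 gene identifiers in the count table. All 37 were found in the table. Of these, 34 averaged 1 CPM or more (read counts scaled to library size, here with the trimmed mean of M values, TMM) and entered the comparisons, as did 12078 genes in all. The glucose transporter Slc2a3, the hypoxia-inducible factor subunit Epas1 and the peptide hormone gene Adm fell below that level and are described apart.

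RNA from MLE12, an immortalized mouse lung epithelial line made with a viral oncogene under a surfactant gene promoter, was sequenced in 6 libraries, 1 per group. The groups were the parental wild-type line left unscratched, the same line taken 24 hours after a pipet tip scratch of the monolayer, and lines labelled as knockouts of Lingo1, Lingo2, Lingo3 and TROY, all 4 taken 24 hours after a scratch. The study asks what the LINGO receptors, leucine-rich repeat proteins best known from neurons, and TROY, a receptor of the tumour necrosis factor family encoded by Tnfrsf19, do in the repair of an epithelial wound. How the knockouts were made and whether each line is 1 clone is not given in the sources used here. No knockout line was sequenced without a scratch.

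Glycolysis splits glucose into pyruvate in the cytosol and yields ATP without oxygen; lactate dehydrogenase then turns pyruvate into lactate, which leaves the cell through monocarboxylate transporters. Many genes of the pathway are textbook targets of the hypoxia-inducible factors (HIFs), pairs of an alpha and a beta subunit that bind DNA. While oxygen is present, the EGLN prolyl hydroxylases mark the alpha subunits for degradation, and EGLN3 is itself the product of a HIF target gene. Lung epithelium normally meets high oxygen, and migrating epithelial cells are known to draw on glycolysis.

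The DNA core that HIFs bind was read in the promoters first, because many of these genes are textbook HIF targets. The core was searched as the letters ACGTG or GCGTG on both strands, so that CACGT and CACGC also count and the palindrome CACGTG counts on each strand, in the 250 bases before each gene start (RefSeq, GRCm38.p6). Of the 37 genes, 33 had a window in the table, some with several starts; Slc2a3, Bnip3l, Epas1 and Ndrg1 had no entry. At least 1 match lay before 30 of the 33 genes and in 38 of 47 windows (80.9%), against 38.6% of the 32851 windows of all genes. The windows of the set were also richer in G and C, with a median of 60.4% against 52.4%. Eno2, Gpi1 and Tpi1 had no match. A match describes letters only, and no binding was measured. The windows of 4 genes (250 bases each, written 5′ to 3′ along the gene's strand, matches in capitals) are shown for genes that sit at different ends of the results below. They belong to Egln3, which had the largest ratio of highest to lowest library among the 34 genes tested (chr12:54203875-54204124, minus strand), to the hexokinase gene Hk2 (chr6:82774455-82774704, minus strand), to the glycolytic kinase gene Pgk1 (chrX:106186850-106187099, plus strand), and to Ankrd37, whose level in all 4 knockout libraries lay under both parental ones (chr8:45999851-46000100, minus strand).
Egln3: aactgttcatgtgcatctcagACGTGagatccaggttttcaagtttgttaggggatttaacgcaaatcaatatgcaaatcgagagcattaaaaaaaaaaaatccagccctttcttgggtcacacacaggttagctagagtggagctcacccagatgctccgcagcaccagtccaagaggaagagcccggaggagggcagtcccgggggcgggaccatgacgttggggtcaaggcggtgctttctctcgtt
Hk2: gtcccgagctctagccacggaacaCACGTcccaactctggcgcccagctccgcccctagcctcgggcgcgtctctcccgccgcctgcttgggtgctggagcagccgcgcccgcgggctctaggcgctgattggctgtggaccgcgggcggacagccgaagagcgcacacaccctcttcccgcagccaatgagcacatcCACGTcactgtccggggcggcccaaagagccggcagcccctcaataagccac
Pgk1: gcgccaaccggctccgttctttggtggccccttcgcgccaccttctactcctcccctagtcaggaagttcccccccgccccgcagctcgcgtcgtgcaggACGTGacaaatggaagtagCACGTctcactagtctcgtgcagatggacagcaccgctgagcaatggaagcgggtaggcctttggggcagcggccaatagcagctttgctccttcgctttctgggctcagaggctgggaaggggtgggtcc
Ankrd37: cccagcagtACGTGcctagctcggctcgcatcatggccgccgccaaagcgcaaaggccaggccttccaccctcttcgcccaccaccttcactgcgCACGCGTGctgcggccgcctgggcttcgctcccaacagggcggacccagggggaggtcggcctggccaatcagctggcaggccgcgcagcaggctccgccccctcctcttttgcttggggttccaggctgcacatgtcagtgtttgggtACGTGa
Egln3 had 1 match, 229 bases before its start. Hk2 had matches at 226 and 52 bases, Pgk1 at 150 and 131 bases, and Ankrd37 at 241, 155, 152 and 6 bases before the start. The windows of Egln3, Hk2 and Pgk1 held no annotated exon, and 17 bases of the Ankrd37 window fell in an Ankrd37 exon (GENCODE M21). Pgk1, with 2 matches, stood above both parental libraries in every knockout library. Ankrd37, with 4, stood below them but passed no rule, and so did Eno2, with no match, and Car9, with 1, stand below. The genes shown were picked with their levels known, and the number of matches was not tested against direction.

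With 1 library a group, no difference could be set against the spread between replicates, and no p-value is given. A fold is the ratio of scaled counts, with an exact Clopper-Pearson 95% interval that covers counting error only. The 2-fold rule asks for a change by a factor of 2 or more, up or down, with the near bound of the interval beyond 1.5. The 1.5-fold rule asks for a factor of 1.5 or more with the near bound beyond the midpoint of 1 and 1.5. Only genes past a rule are called higher or lower in a count. The libraries held 28109825 to 30776294 counts in genes, and 3 counts were worth 0.0984 to 0.108 CPM. Lingo1 itself stood at 24.5 CPM in the scratched parental library and at 57.0 CPM in the library labelled Lingo1, so its transcript level did not follow that label, and every direction drawn from that library rests on the label alone. The Lingo1 transcript stood at 27.6 CPM in the unscratched parental library. It was above both parental levels in the other knockouts too, at 52.0 CPM in Lingo2, 51.3 CPM in Lingo3 and 34.7 CPM in TROY. Lingo2, Lingo3 and Tnfrsf19 had 0 to 4 counts in every library, which checks no label. Of 14 alveolar epithelial markers 9 reached 1 CPM in each library, while Sftpa1, Sftpd, Lamp3, Krt18 and Cldn18 did not, and the summed level of the 14 ran from 2452 to 2676 CPM in the parental and from 3237 to 3597 CPM in the knockout libraries. Reads in no annotated gene made up 7.80% and 8.02% in the parental libraries and 4.98% to 6.41% in the knockout libraries. These are shares of gene counts, ambiguous reads and reads in no gene together, without reads that aligned to more than 1 place. The 8 fibroblast markers summed to 2578 and 2824 CPM in the parental and 2745 to 3462 CPM in the knockout libraries, nearly all of it Dcn. The 4 fibroblast markers tested, Dcn, Col1a1, Pdgfra and Pdgfrb, were all above 1 in each knockout, against 50.8% to 53.5% of all genes. In TROY, 3 of 4 were above 1 when scaled by total counts. Their median log2 folds were 1.23, 1.22, 2.56 and 1.16 in Lingo1, Lingo2, Lingo3 and TROY. By the 2-fold rule 2, 2, 3 and 2 of them were higher, against 1.95%, 2.12%, 4.63% and 1.06% of all genes. Col1a1 stood at 62.3 and 44.8 CPM in the parental libraries and at 170, 136, 398 and 146 CPM in the knockouts, while Tcf21 was at 0 in all 6 libraries and Lum at 0 or 1 count. Of the 9 alveolar markers tested, 5, 4, 5 and 3 passed the 1.5-fold rule as higher, against 5.57%, 5.54%, 10.3% and 3.72% of all genes. Col1a1, Pdgfra, Pdgfrb, the alveolar sum and the share of reads in no gene separated parental from knockout libraries, with the 3 fibroblast genes highest in Lingo3, as were most of the glycolytic genes below, and their part in the results was not tested. In bulk RNA, fewer cells of a kind and less RNA per cell cannot be told apart.

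In the parental line none of the 34 genes passed either rule 24 hours after the scratch. Over all 12078 genes, 0.0662% passed the 2-fold rule as higher and 0.0166% as lower, and 0.207% and 0.116% passed the 1.5-fold rule. The median log2 fold was -0.02 for the set and -0.01 for all genes, with 14 of the 34 genes above 1 and 20 below (18 and 16 when scaled by total counts). Above 1 were thus 41.2% of the set, against 46.4% of all genes. The members farthest from 1 were Pfkfb3, whose product makes an activator of phosphofructokinase, at 1.37-fold (1.2 to 1.57), and Hk2 at 1.35-fold (1.14 to 1.60). On the low side stood Ldhb at 0.837 (0.574 to 1.22), Slc16a3 at 0.842 (0.772 to 0.918), Hk1 at 0.848 (0.798 to 0.900) and Pfkm at 0.850 (0.805 to 0.897).

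The knockout libraries held more glycolytic transcripts than the parental ones, and the library labelled Lingo3 held the most. The 17 enzyme genes from hexokinase to lactate dehydrogenase took 0.427% of all gene counts in the unscratched and 0.419% in the scratched parental library. They took 0.524% in the library labelled Lingo1, 0.539% in Lingo2, 0.615% in Lingo3 and 0.464% in TROY. The 2 parental libraries were thus close to each other and below all 4 knockout libraries. These sums follow the most abundant genes, Pkm, Gapdh and Tpi1.

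**Figure D1:**
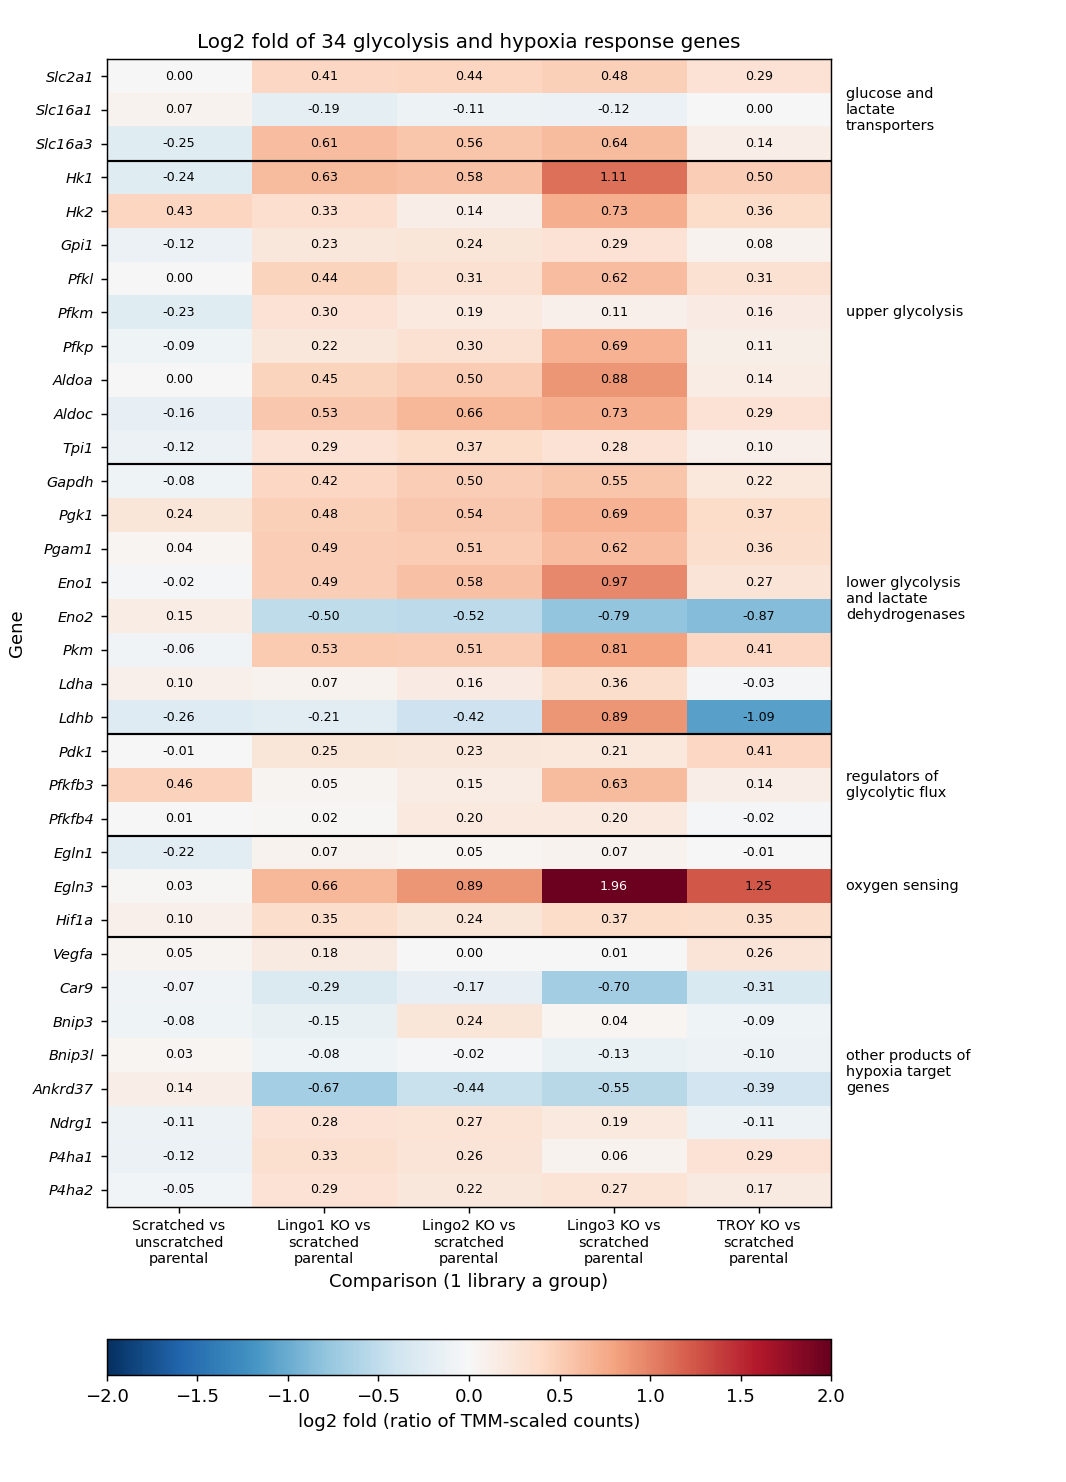
Log2 fold (ratio of TMM-scaled counts) of the 34 genes, in rows by role, in the 5 comparisons, in columns, with 1 library a group; red is higher and blue lower than the control library. The enzyme rows are red in the knockout columns except Eno2, Ldhb outside Lingo3, and Ldha in TROY, and the strongest cell is Egln3 in Lingo3 at 1.96.

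All 4 knockout comparisons use the same scratched parental library as control, so its own deviations enter each of them, and their values are given side by side without a measure of likeness. In the library labelled Lingo1 no member passed the 2-fold rule, against 1.95% of all genes as higher and 1.67% as lower. Under the 1.5-fold rule 2 members were higher, Hk1 and Slc16a3, and none lower, against 5.57% and 4.19% of all genes. In the library labelled Lingo2 no member passed the 2-fold rule either (2.12% of all genes higher, 1.38% lower), and Aldoc and Egln3 passed the 1.5-fold rule as higher, with none lower (5.54% and 3.84%). In TROY, Egln3 passed the 2-fold rule as higher and none as lower (1.06% and 1.18% of all genes), and under the 1.5-fold rule Egln3 was higher and Eno2 and Ldhb were lower (3.72% and 3.35%). These counts lie near the share of all genes that passed.

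In the library labelled Lingo3, 2 of the 34 members passed the 2-fold rule as higher, Hk1 and Egln3, and none as lower, against 4.63% and 2.56% of all genes. Under the 1.5-fold rule 14 members were higher and 2 lower, Eno2 and Car9, against 10.3% and 7.01% of all genes. The 14 are 41.2% of the members tested. They were Slc16a3, Hk1, Hk2, Pfkl, Pfkp, Aldoa, Aldoc, Pgk1, Pgam1, Eno1, Pkm, Ldhb, Pfkfb3 and Egln3. Scaled by total counts, Slc16a3, Pfkl, Pgam1 and Pfkfb3 came to 1.47- to 1.48-fold and 10 stayed past the rule.

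The medians describe the smaller shifts that the rules do not count. The median log2 fold of the 34 members was 0.29 in the library labelled Lingo1, 0.24 in Lingo2, 0.36 in Lingo3 and 0.15 in TROY. Over all genes tested it was between 0.01 and 0.02, and over the 2608 genes that averaged 100 CPM or more between 0.06 and 0.09. The 17 enzymes had medians of 0.42, 0.37, 0.69 and 0.22 in the same order. The 8 other products of HIF target genes had 0.05, 0.11, 0.03 and -0.10. Of the 34 members, 27, 27, 29 and 24 had a fold above 1 in Lingo1, Lingo2, Lingo3 and TROY, and 23, 26, 26 and 22 did when scaled by total counts. The unscaled-by-total shares were 79.4%, 79.4%, 85.3% and 70.6%, against 51.2%, 53.1%, 50.8% and 53.5% of all genes tested. Among the 2608 genes that averaged 100 CPM or more, 65.3%, 61.9%, 58.1% and 68.0% were above 1. The TROY share of the members lay near that of these abundant genes.

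**Figure D2:**
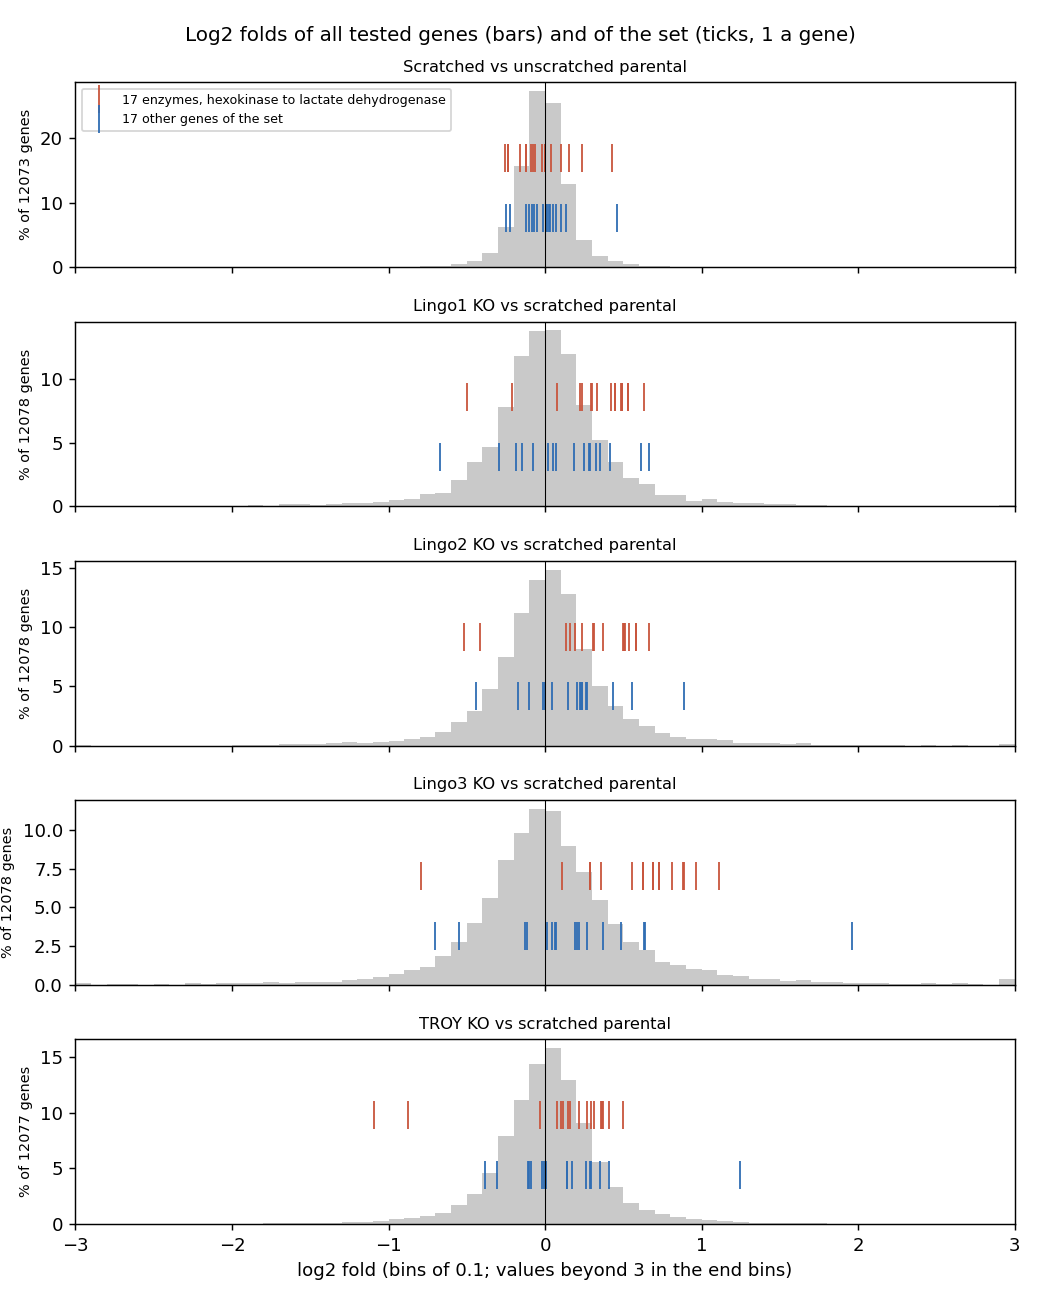
Distribution of the log2 fold over the genes tested that have a fold (grey bars, percent of genes in bins of 0.1; at most 12078, the number on each axis) in each of the 5 comparisons, with 1 tick for each of the 17 enzyme genes (red) and of the 17 other members (blue). The red ticks lie mostly right of 0 in the 4 knockout comparisons and farthest right in Lingo3, where their median is 0.69. The blue ticks lie on both sides of 0, more of them to the right in the knockout comparisons. Among these, Slc16a3 at 0.64 and Pfkfb3 at 0.63 pass the 1.5-fold rule in Lingo3, and Egln3 lies apart in Lingo3 and TROY.

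All 4 knockout libraries stood above both parental libraries for 17 of the 34 members, against 24.2% of all genes tested. All 4 stood below both for Eno2, Car9 and Ankrd37 (8.82%), against 21.9% of all genes. Scaled by total counts these numbers were 15 and 4. The library labelled Lingo3 was the highest of the 6 for 19 members (55.9%), against 25.3% of all genes, and the scratched parental library was the lowest for 15 (44.1%), against 22.1%. The 17 members above were Slc2a1, Hk1, Hk2, Pfkl, Pfkp, Aldoa, Aldoc, Gapdh, Pgk1, Pgam1, Eno1, Pkm, Pdk1, Pfkfb3, Egln3, Hif1a and P4ha2.

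Of the 3 transporters tested, 1 passed a rule, Slc16a3, higher by the 1.5-fold rule in Lingo1 and Lingo3. Of all genes, 5.57% and 10.3% were higher by that rule there. Slc2a1, the main glucose importer, stood at 34.4 and 34.6 CPM in the parental libraries and at 42.3 to 48.3 CPM in the knockouts, with folds of 1.22 to 1.40. Slc16a3, a lactate exporter, was 1.53-fold (1.41 to 1.66) in the library labelled Lingo1, 1.47-fold in Lingo2, 1.55-fold (1.43 to 1.68) in Lingo3 and 1.10-fold in TROY. Against the unscratched parental library the Slc16a3 folds in Lingo1 and Lingo3 were 1.29 and 1.31. Slc16a1, which carries lactate both ways, stayed between 235 and 268 CPM in all 6 libraries. Slc2a3, a high-affinity glucose importer, had 7, 18, 10, 12, 13 and 16 counts in the unscratched parental, scratched parental, Lingo1, Lingo2, Lingo3 and TROY libraries, too few to separate them.

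Upper glycolysis, the steps from glucose to the triose phosphates, held 9 members, all above 1 in each knockout comparison (8 of 9 in TROY when scaled by total counts, where Gpi1 came to 0.998). In these comparisons 50.8% to 53.5% of all genes were above 1. Hk1 (ENSMUSG00000037012, chromosome 10, 62268855 to 62379908, minus strand, GRCm38) encodes the housekeeping hexokinase that traps glucose in the cell. Hk1 stood at 80.5 and 68.3 CPM in the unscratched and scratched parental libraries. It stood at 106 CPM in the library labelled Lingo1, 102 CPM in Lingo2, 147 CPM in Lingo3 and 96.4 CPM in TROY. The knockout libraries did not overlap the parental ones, and Lingo3 was the highest. Against the scratched parental library the folds were 1.55 (1.46 to 1.64), 1.498 (1.42 to 1.59), 2.16 (2.05 to 2.27) and 1.41 (1.34 to 1.5), while against the unscratched library the fold in Lingo1 was 1.31. The fold in Lingo2 fell just short of the 1.5-fold rule. An antisense gene, Hk1os, shares 157 exon bases with Hk1, and since the sources used here do not state whether strand was used in counting, its reads cannot be told apart there.

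Hk2 (ENSMUSG00000000628, chromosome 6, 82725025 to 82774454, minus strand), the inducible hexokinase, was less abundant. Its level was 8.13 and 10.9 CPM in the unscratched and scratched parental libraries, and 13.8, 12, 18.1 and 14.1 CPM in Lingo1, Lingo2, Lingo3 and TROY. Lingo3 was again the highest, at 1.66-fold (1.44 to 1.90), and the other knockout libraries were at 1.10- to 1.29-fold. Against the unscratched parental library Hk2 also passed the 1.5-fold rule in Lingo1, at 1.69-fold, and in TROY, at 1.73-fold. The phosphofructokinase genes, which encode the committed step, split in Lingo3: Pfkl was 1.54-fold (1.44 to 1.65), Pfkp 1.62-fold (1.52 to 1.72) and Pfkm 1.08-fold (1.02 to 1.14). Pfkp shares 748 exon bases with Pitrm1 on the other strand, and Pfkm 341 with the predicted gene Gm26513 on its own strand. Among the aldolases, which cut the sugar, Aldoa was 1.84-fold (1.80 to 1.89) and Aldoc 1.65-fold (1.55 to 1.77) in Lingo3. Aldoc was 1.58-fold (1.48 to 1.69) in Lingo2, and against the unscratched parental library its folds in Lingo2 and Lingo3 were 1.42 and 1.48. The isomerase genes passed no rule: Gpi1 stood at 330 and 359 CPM in the parental and 348 to 403 CPM in the knockout libraries, and Tpi1 at 587 and 638 CPM and at 630 to 760 CPM, so the groups overlapped for both.

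**Figure D3:**
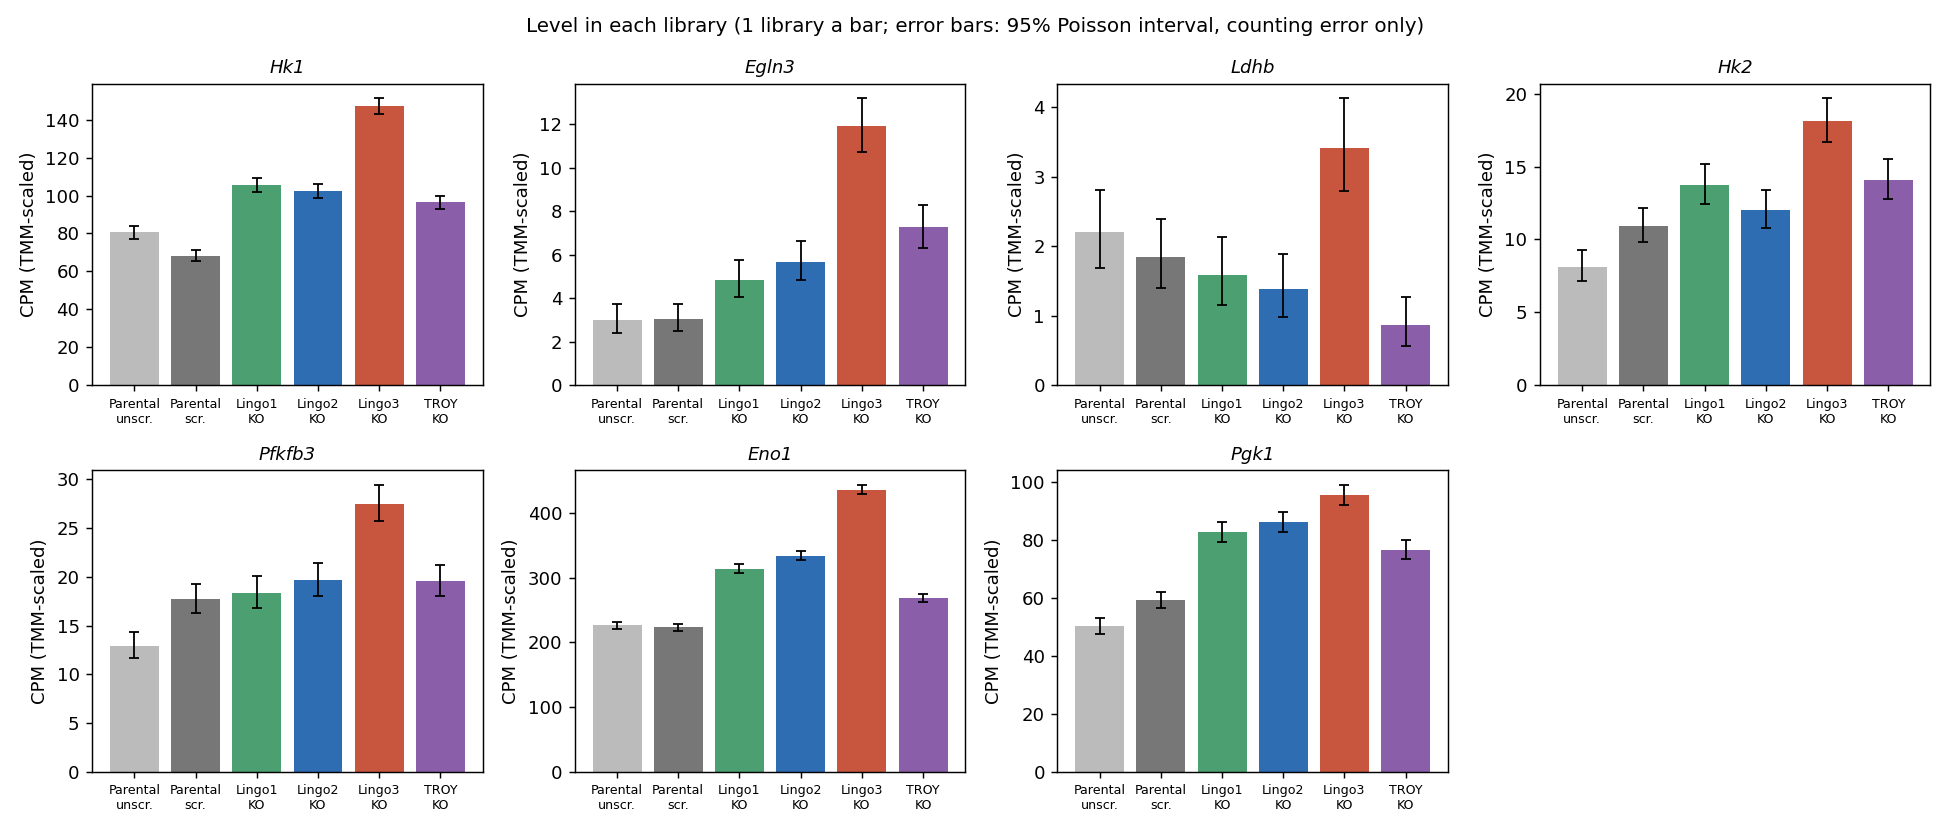
Level in CPM (TMM-scaled) of the 2 genes past the 2-fold rule and of the 5 others with the largest ratio between highest and lowest library, 1 bar a library, with 95% Poisson intervals for counting error. Lingo3 is the highest bar for all 7 genes, and Egln3 shows 4 knockout bars above both parental ones.

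Lower glycolysis turns the triose phosphates into pyruvate. Eno1 (ENSMUSG00000063524, chromosome 4, 150236721 to 150248879, plus strand), the widespread enolase, stood at 227 and 223 CPM in the unscratched and scratched parental libraries. In Lingo1, Lingo2, Lingo3 and TROY it stood at 314, 334, 436 and 268 CPM. The parental libraries were nearly equal and all knockouts higher, with folds of 1.41, 1.496, 1.95 (1.90 to 2.01) and 1.2. Pgk1 (ENSMUSG00000062070, chromosome X, 106187100 to 106203699, plus strand), which makes ATP, stood at 50.4 and 59.3 CPM in the unscratched and scratched parental libraries and at 82.9, 86.2, 95.7 and 76.8 CPM in Lingo1, Lingo2, Lingo3 and TROY. Its groups did not overlap either, and its fold was 1.61 (1.52 to 1.71) in Lingo3. Against the unscratched parental library Pgk1 also passed the 1.5-fold rule in Lingo1, Lingo2 and TROY, at 1.65-, 1.71- and 1.53-fold. Pkm, the pyruvate kinase gene, was 1.75-fold (1.73 to 1.78) in Lingo3 and 1.33- to 1.44-fold in the other knockouts. Pkm shares 767 exon bases with the predicted gene Gm49759 on its own strand. Gapdh, often used as a reference gene, was 1.34-fold in Lingo1, 1.41-fold in Lingo2, 1.47-fold (1.44 to 1.49) in Lingo3 and 1.16-fold in TROY.

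Eno2, the enolase of neurons and endocrine cells, went the other way from Eno1. Its level was 12.3 and 13.6 CPM in the unscratched and scratched parental libraries and 9.64, 9.52, 7.87 and 7.45 CPM in Lingo1, Lingo2, Lingo3 and TROY. All knockout libraries were below both parental ones, with folds of 0.706 (0.603 to 0.826), 0.698 (0.596 to 0.815), 0.577 (0.490 to 0.678) and 0.546 (0.462 to 0.644).

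The lactate dehydrogenases differed from each other too. Ldha, the form that favours lactate, stayed within 350 to 481 CPM, at 0.979-fold (0.954 to 1.01) in TROY and 1.28-fold in Lingo3, and its fold of 1.05 in Lingo1 came to 0.999 when scaled by total counts. Ldhb (ENSMUSG00000030246, chromosome 6, 142490249 to 142507957, minus strand), the form that favours pyruvate, was rare, with 63 and 56 counts in the unscratched and scratched parental libraries and 44, 39, 104 and 26 counts in Lingo1, Lingo2, Lingo3 and TROY. That is 2.20, 1.84, 1.59, 1.38, 3.41 and 0.864 CPM in the same order. Lingo3 was the highest and TROY the lowest library, on either side of the parental ones. The fold was 1.85 (1.33 to 2.61) in Lingo3 and 0.469 (0.283 to 0.760) in TROY, and its wide intervals follow from the low counts.

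Of the regulators of flux, Pfkfb3 (ENSMUSG00000026773, chromosome 2, 11471433 to 11554077, minus strand) stood at 12.9 and 17.8 CPM in the unscratched and scratched parental libraries and at 18.4, 19.7, 27.5 and 19.5 CPM in Lingo1, Lingo2, Lingo3 and TROY. The scratched parental library was close to 3 of the knockouts, and Lingo3 stood above at 1.55-fold (1.39 to 1.73). Against the unscratched parental library Pfkfb3 also passed the 1.5-fold rule in Lingo2, at 1.52-fold, and in TROY, at 1.51-fold. Pfkfb4, of the same enzyme family, stayed between 10.9 and 12.7 CPM. Pdk1, whose product holds pyruvate back from the mitochondria, was 1.16- to 1.33-fold in the knockouts and highest in TROY.

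Among the 34 members tested, the largest fold was that of an oxygen sensing gene. Egln3 (ENSMUSG00000035105, chromosome 12, 54178981 to 54203860, minus strand) stood at 3.0 CPM (95% Poisson interval 2.40 to 3.71) without and 3.06 CPM (2.47 to 3.75) with a scratch in the parental line. It stood at 4.84 CPM in the library labelled Lingo1, 5.66 CPM in Lingo2, 11.9 CPM in Lingo3 and 7.25 CPM in TROY. The intervals of the parental libraries overlapped, and all 4 knockout libraries lay above them. The folds were 1.58 (1.21 to 2.08), 1.85 (1.43 to 2.42), 3.89 (3.09 to 4.95) and 2.37 (1.85 to 3.06), on 86 to 363 counts, and the Lingo1 interval reached below the bound that the 1.5-fold rule asks for. Egln1, the main oxygen sensor of the family, stayed within 78.6 to 92.1 CPM, at 0.995- to 1.05-fold in the knockouts (0.984 in Lingo2 and 0.994 in Lingo1 when scaled by total counts). By RPKM, which corrects for gene length, Egln3 made up 4.21% to 16.3% of the sum of Egln1 and Egln3, with the top value in Lingo3. Hif1a, the widespread HIF alpha subunit, stood at 125 and 135 CPM in the parental and 159 to 174 CPM in the knockout libraries, with folds of 1.18 to 1.29. Hif1a shares 330 exon bases with the predicted gene Gm15283 on the other strand and 148 with Gm49321 on its own. HIF activity is set mainly through protein stability, which these data do not measure.

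Epas1, the HIF alpha subunit typical of endothelium and alveolar cells, had 0 counts in the unscratched and 93 in the scratched parental library, and 0, 2, 55 and 1 in Lingo1, Lingo2, Lingo3 and TROY. It was thus present in 2 of 6 libraries and absent or near absent in the others. With a floor of 3 counts in place of 0, it was 29.2-fold higher after the scratch, with a lower interval bound of 23.3. Against the scratched parental library it was 28.2-fold lower, with a lower bound of 22.5, in the library labelled Lingo1. The ratio was 0.0231 (0.00276 to 0.0860) in Lingo2, 0.590 (0.415 to 0.832) in Lingo3 and 0.0109 (0.000272 to 0.0621) in TROY. Endothelial markers moved with it in part: of 8, 4 reached 1 CPM in the scratched parental library, 2 in Lingo3 and 1 in each of the others. The summed level of the 8 was 97.4 CPM in the scratched parental library, 103 CPM in the unscratched one and 162 to 188 CPM in the knockouts, nearly all of it Tek. Tie1 had 52 and Cdh5 20 counts in the scratched parental library, and both were at 0 in Lingo3. Of the 8 markers, 3 were at 0 in Lingo3, and the 2 that reached 1 CPM there were Tek and another marker. The part of the endothelial markers in the Epas1 counts was not tested. Adm had 1 count, in the library labelled Lingo1.

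Of the 8 other products of HIF target genes that were tested, 1 passed a rule, in 1 library. That was Car9, lower by the 1.5-fold rule in Lingo3, as were 7.01% of all genes. Vegfa, an endothelial growth factor, stood at 96.3 and 99.6 CPM in the parental and 99.6 to 119 CPM in the knockout libraries, and Bnip3 and Bnip3l, receptors for the removal of mitochondria, were 0.902- to 1.18-fold and 0.916- to 0.989-fold. Car9, a carbonic anhydrase of the cell surface and a common hypoxia marker, stood at 8.90 and 8.48 CPM in the unscratched and scratched parental libraries and at 6.93, 7.54, 5.22 and 6.85 CPM in Lingo1, Lingo2, Lingo3 and TROY. It was lowest in Lingo3, at 0.615-fold (0.501 to 0.752), the library in which Egln3 was highest. Car9 shares 214 exon bases with the predicted gene Gm12454 on the other strand. Ankrd37, a small ankyrin repeat protein, had 40 to 53 counts in the knockouts and 60 and 70 in the parental libraries. Its folds of 0.627 to 0.766 did not pass a rule. Ankrd37 shares 349 exon bases with Lrp2bp and 57 with Ufsp2 on the other strand. Ndrg1 ran from 0.928-fold in TROY to 1.22-fold in Lingo1. P4ha1 and P4ha2, catalytic subunits of the enzyme that hydroxylates collagen, stood at 97.0 to 116 CPM and 90.0 to 97.5 CPM in the knockouts, against 92.8 to 101 CPM and 79.9 to 82.7 CPM in the parental libraries.

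**Figure D4:**
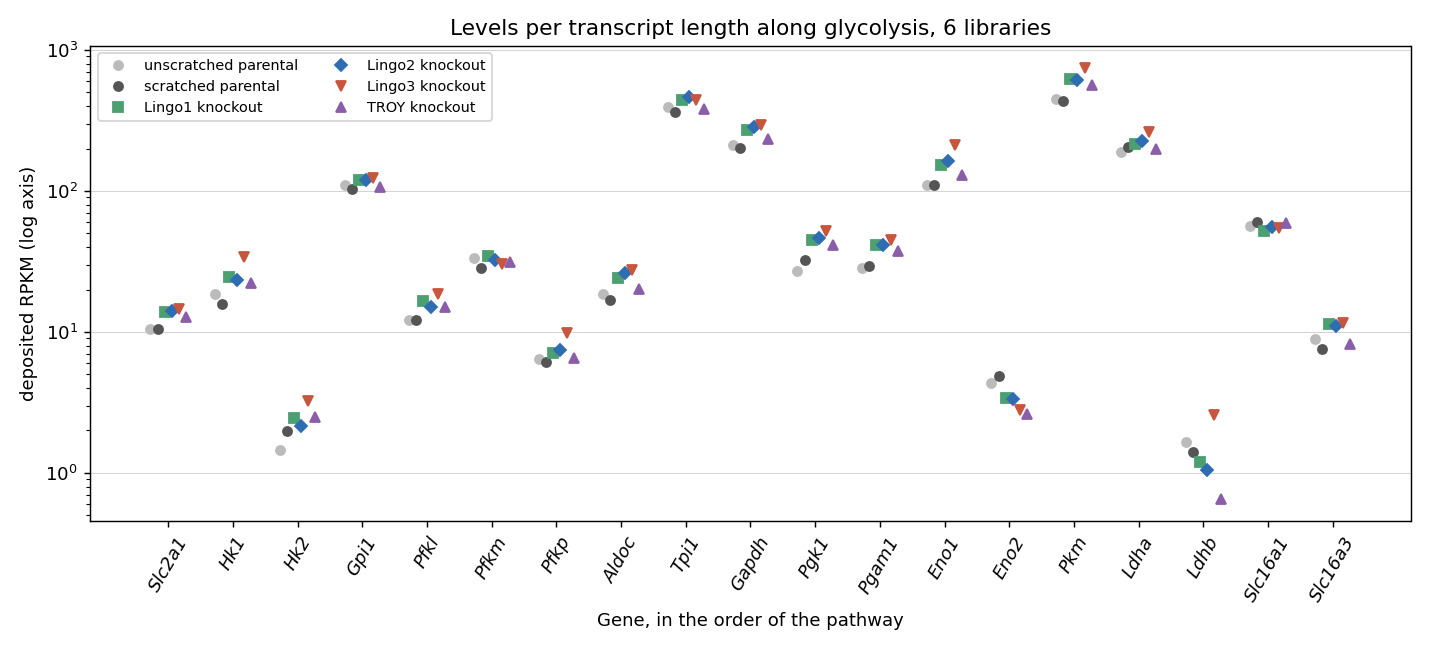
Deposited RPKM (log axis) of 19 transporter and enzyme genes in the order of the pathway, 1 symbol a library; Aldoa is left out because it is listed in 2 rows. Within each family 1 gene dominates in every library (Hk1 over Hk2, Eno1 over Eno2, Ldha over Ldhb), apart from phosphofructokinase, where Pfkm, Pfkl and Pfkp are closer.

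Compared per gene length, the same form led in all 6 libraries in each of the families that follow. Aldoa has 2 unequal rows in the authors' RPKM table, 1 of them above Pkm in some libraries, and is left out of the order. By the authors' RPKM, Pkm was the highest of the other members, at 432 to 752 RPKM, then Tpi1 at 363 to 465, with Ldha at 190 to 262 and Gapdh at 203 to 295. Hk1 made up 89.0% to 92.8% of the summed level of Hk1 and Hk2, Eno1 95.8% to 98.7% of Eno1 and Eno2, Ldha 99.0% to 99.7% of Ldha and Ldhb, and Slc2a1 at least 99.2% of Slc2a1 and Slc2a3. Pfkm made up 51.7% to 64.2% of the 3 phosphofructokinases, Pfkl 23.3% to 31.6% and Pfkp 12.1% to 16.6%. Slc16a1 made up 82.1% to 88.8% of Slc16a1 and Slc16a3. The Ldhb and Eno2 differences above thus concern minor forms.

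Several of these genes have many processed copies in the mouse genome, so their reads may be lost or shared. Of all 50-base windows of the transcript, 82.5% recurred in other genes for Gapdh (218 genes, 213 of them pseudogenes), 72.2% for Eno1, 68.0% for Pgk1, 41.5% for Pgam1, 34.4% for Pkm and 27.0% for Ldhb. In all, 11 members shared at least 10% of their windows, and Egln3, Hk1, Hk2, Aldoc, Slc16a3 and Car9 shared none. Entries marked as aligned to more than 1 place made up 28.7% to 31.3% of those entries, gene counts, reads in no gene and ambiguous reads together. Unaligned reads are not in that total, and how often 1 read was entered is not stated. The levels of the 11 are uncertain for that reason. Without them, an alternative chosen after seeing the data, 8 of 23 members were higher and 2 lower in Lingo3 by the 1.5-fold rule. The shares of all genes were 10.3% and 7.01%. The median log2 fold of the 23 was 0.27 in place of 0.36.

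Neighbouring pathways are read against the same shares of all genes, of which 4.63% were higher by the 2-fold rule in Lingo3. In the pentose phosphate pathway, which makes NADPH and ribose, 9 of 10 genes were tested, and 9, 8, 8 and 8 of them were above 1 in Lingo1, Lingo2, Lingo3 and TROY (8, 8, 8 and 6 when scaled by total counts). The shares of all genes above 1 were 51.2%, 53.1%, 50.8% and 53.5%. The median log2 folds that follow are those of the 9 pathway genes. Their median log2 folds were 0.29, 0.21, 0.35 and 0.20. Pgd, which encodes an NADPH-yielding dehydrogenase, stood at 218 and 234 CPM in the parental libraries and 488 CPM in Lingo3, 2.09-fold (2.03 to 2.15), and fell short of the 2-fold rule when scaled by total counts. Transketolase, Tkt, named after its values were seen, passed the 1.5-fold rule in all 4 knockouts, at 1.80-, 1.73-, 1.97- and 1.80-fold in the same order. In glycogen metabolism 14 of 16 genes were tested, and 1 passed the 2-fold rule, the phosphorylase gene Pygb, at 2.27-fold (2.20 to 2.35) in Lingo3, a count near the share of all genes. Of 10 tested genes among 26 other glycolytic isozymes, carriers and regulators, 1 passed the 2-fold rule, the insulin-responsive carrier gene Slc2a4, at 2.62-fold (1.66 to 4.25) in Lingo3 on a mean of 1.34 CPM. Of the 13 genes of mitochondrial pyruvate entry, all tested, none passed the 2-fold rule, and the median log2 fold was 0.10, 0.14, 0.25 and 0.08. Of 7 further genes of gluconeogenesis only Pck2 was tested, at 64.5 and 68.1 CPM in the parental and 80.4 to 98.5 CPM in the knockout libraries.

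Other genes of the oxygen response were mixed. Of 17 other oxygen sensing genes 14 were tested, among them Vhl, Arnt and Hif1an, with median log2 folds of -0.11, -0.09, -0.15 and -0.07 in Lingo1, Lingo2, Lingo3 and TROY and none past the 2-fold rule. Of 48 other hypoxia response genes 34 were tested, and 2, 3, 8 and 1 were higher by the 2-fold rule in the same order (2, 3, 6 and 1 when scaled by total counts), against 1.95%, 2.12%, 4.63% and 1.06% of all genes. Flt1, a VEGF receptor, stood at 5.79 and 7.86 CPM in the parental libraries and 35.9 CPM in Lingo3, 4.57-fold (3.97 to 5.28). Errfi1, a feedback inhibitor of the EGF receptor, was 2.78-fold (2.52 to 3.08) and the chemokine receptor gene Cxcr4 2.78-fold (2.06 to 3.80) in Lingo3. Edn1, the endothelin precursor gene, was 2.46-, 2.48-, 2.12- and 2.28-fold in the 4 knockouts. The 1 gene lower by the 2-fold rule was the histone demethylase gene Kdm3a, named after its values were seen, at 0.472-fold (0.452 to 0.493) in Lingo3. The list medians were 0.10, 0.21, 0.17 and 0.08. Of the 8 endothelial markers, 3 were at 0 in Lingo3, Cdh5 and Tie1 among them, and 2 reached 1 CPM there, Tek and another marker. Tek stood at 86.5 and 102 CPM in the parental and 161 to 186 CPM in the knockout libraries. The part of the endothelial markers in the Flt1 and Edn1 values was not tested.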

How the data were processed

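RNA was measured in 6 libraries of 1 mouse cell line, 1 per group, prepared with a messenger RNA kit per the labels. The authors deposited raw read counts per gene; Trimmomatic 0.39, STAR, HTSeq, edgeR and GRCm38 are named in the submitters' processing notes, with no order, settings or annotation release. A second deposited table gives RPKM values and log2 ratios of the authors, with a low-value filter that is not stated; its RPKM header names no unit, which was read from the values. The authors' log2 ratios differed from the log2 folds computed here by at most 0.0239 over 165 values and were used only as that check, and the deposited RPKM for levels between genes.

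Counts were scaled with TMM (edgeR 4.0.16, R 4.3.3) over the 6 libraries, without the summary lines that name no gene. Reads in no gene made up 4.98% to 8.02% of gene counts, ambiguous reads and reads in no gene together. Genes averaging 1 CPM or more were kept, 12078 of 46078, and 45229 identifiers matched GENCODE M21. Folds, intervals and the 2 size rules are as defined in the results, with a floor of 3 counts where a library had 0. The size rules were run on simulated counts that held counting error alone, so that run cannot speak to spread between cultures. The precision of a fold follows from its counts alone; nothing was measured about culture-to-culture spread.

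The scratched was compared with the unscratched parental library, and each knockout with the scratched parental library. Alternatives were scaling by total counts or by DESeq2 size factors (1.42.0), no or a stricter filter on low counts, and the deposited RPKM. Further ones were the unscratched control, the mean in place of the median, and leaving out genes with copies. The members and lists were chosen with earlier results of these data known. Levels are given in full for members past the 2-fold rule and for the 5 others with the largest ratio of highest to lowest library; of each other list up to 4 genes past the 2-fold rule are named, by the interval bound nearest to 1. Lists for 8 fibroblast, 8 endothelial and 8 immune markers summed to 2578 to 3462, 97.4 to 188 and 1.93 to 3.71 CPM in the 6 libraries. Promoter and transcript sequences came from RefSeq and GENCODE.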

Additional observations from a re-analysis of the deposited data

Results flagged for a closer look

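Ldhb was 3.95-fold (2.55 to 6.32, counting error only) higher in the library labelled Lingo3 than in TROY, since these libraries lay on either side of the scratched parental library. The difference between the 2 knockout lines was not tested, as each has 1 library. Epas1, which fell below the level needed for the comparisons, had 93 counts in the scratched parental library and 55 counts in the library labelled Lingo3, above the 3 counts taken as the floor, against 0 to 2 counts in the other libraries.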

How the results depend on the processing

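Of 107 recomputed counts and medians, 95 stayed within the bounds set and 12 moved. For a count the bound was a factor of 1.5. For a median it was the median half-width of the single members' fold intervals. That width is the counting error of a single gene and a loose bound for a median over many genes. Among the 95, the median after the scratch changed sign, from -0.018 to 0.0139 on the log2 scale, under total counts. With no filter on low values, Epas1 entered, and the members past the 2-fold rule became 1 after the scratch (1 also by the 1.5-fold rule), 1 in Lingo1, 1 in Lingo2 and 2 in TROY. Scaling by total counts left 0 members past the 1.5-fold rule in Lingo1. The deposited RPKM, on the fold alone, gave 4 by the 1.5-fold rule in Lingo1 and 2 by the 2-fold rule in TROY. With the unscratched parental library as control, TROY had 2 members past the 2-fold and 6 past the 1.5-fold rule. Without the 11 members that share sequence with other genes, Lingo3 had 10 by the 1.5-fold rule and a median of 0.27. Of 23 calls of single members by the 1.5-fold rule, 6 were lost and 1 gained under total counts, 6 lost and 7 gained with the unscratched control, none lost and 1 gained under RPKM, none lost or gained under DESeq2 size factors, and none turned; the cause was not tested. Depth does not limit the abundant enzymes, but it widens the intervals of Ldhb, Ankrd37 and Egln3. No paired analysis was possible because each group has 1 library.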
